A study of Mus musculus with 2 samples.

Results

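The potassium channel gene family was taken as every protein-coding gene of GENCODE on chromosomes 1 to 19 of mm10 whose symbol begins with Kcn, which gave 92 of 20807 protein-coding genes. The symbol rule used no measured value. A further 2 protein-coding Kcn genes lie on chromosome X (Kcnd1 and Kcne1l) and 5 Kcn symbols belong to antisense transcripts, and these were left out. The data are DNase-seq, in which DNase I cuts DNA that is not wrapped in nucleosomes, so that accessible promoters and enhancers appear as peaks of cuts and bound proteins as short protected stretches, called footprints. The mice were B6CASTF1/J females, 2 months old, and the tissue was their left cerebral cortex. This strain is the first-generation cross of a C57BL/6J and a CAST/EiJ parent, and the 2 libraries, called replicate 1 and replicate 2, form 1 group. The labels number the females separately but give both the same donor entry, so the spread between libraries may hold less than the full spread between animals. With 1 group there was no contrast to test, and members were set beside all protein-coding genes by counts and medians only.

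Potassium channels let K+ leave or enter the cell and so set the resting potential, end the action potential and space one spike from the next. The pore is built from Kcn gene products of several classes: voltage-gated subunits (Kcna, Kcnb, Kcnc, Kcnd, Kcnq and Kcnh), silent subunits that modify Kcnb channels (Kcnf, Kcng, Kcns and Kcnv), inward rectifiers (Kcnj), two-pore-domain leak channels (Kcnk) and channels opened by intracellular calcium or sodium (Kcnma, Kcnn and Kcnt). Auxiliary genes (Kcnab, Kcne, Kcnip and Kcnmb) code for proteins that sit on these pores and change their gating or transport.

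The libraries were of like depth. If the smallest step between signal values stands for 1 cut per 1 M, replicate 1 was sequenced to 206.4 M cuts and replicate 2 to 208.2 M. The larger peak lists held 128323 and 119651 peaks. The tissue label was checked against cell type markers: all 4 genes of excitatory cortical neurons (Slc17a7, Neurod2, Neurod6 and Tbr1) had a promoter peak in both libraries, as did 2 of 3 inhibitory, 2 of 3 astrocyte and 1 of 3 oligodendrocyte genes. The shared count was 0 of 2 for microglia (Csf1r and Cx3cr1), 0 of 2 for endothelium (Cldn5 and Pecam1, of which Cldn5 had a peak of 0.490 in replicate 2) and 0 of 4 for other tissues (Alb, Hnf4a, Krt5 and Myod1). In bulk tissue, a site open in fewer cells and a site less open in each cell cannot be told apart.

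A gene was given a promoter peak when a peak of the larger list reached within 500 bp of its outermost annotated 5′ end, and the promoter signal is the highest deposited peak signal there, a depth-normalised cut density with no further unit. Of the 92 Kcn genes, 66 (71.7%) had a promoter peak in both libraries, against 60.1% of all protein-coding genes. Another 4 had a peak in 1 library and 22 in neither. Counting any annotated start site of the gene, 75 of 92 (81.5%) had a shared peak, against 65.6% of all protein-coding genes. The distance to the background was narrower with the stricter calls: in the smaller peak list 56 Kcn genes (60.9%) and 56.1% of all genes had a shared promoter peak. The highest peak of the window tended to be low. The median signal of the 66 was 1.62, against 2.997 over the 12498 protein-coding genes with a shared promoter peak. The members ranged from 0.309 (Kcng4) to 8.38 (Kcnab2). Coverage went the other way: windows of the 66 held a median of 2 peaks in each library, against 1 for those 12498 genes. The median number of bases under peaks was 493 in replicate 1 and 366.5 in replicate 2, against 340 and 305. Where peaks of 1 library overlapped, their bases were counted more than once.

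**Figure D1:**
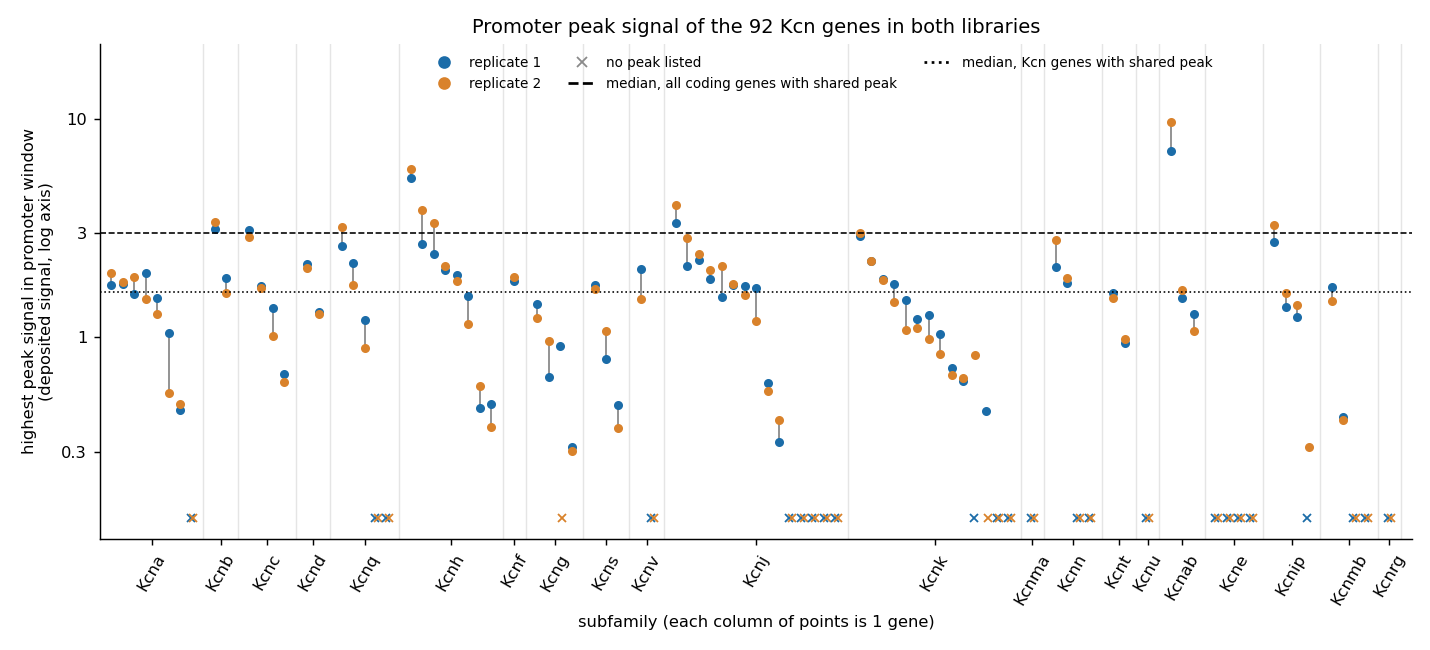
Promoter signal of each of the 92 Kcn genes on a log axis, in replicate 1 (blue) and replicate 2 (orange), grouped by subfamily; crosses at the foot mark libraries with no peak listed, and the lines mark the medians of 2.997 (all protein-coding genes with a shared peak) and 1.62 (Kcn genes with one). Most members lie below the dashed line, Kcnab2 and Kcnh1 stand highest, and the 4 Kcne genes are all crosses.

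The libraries placed the members in nearly the same order. Over the 66 genes the median difference between replicates was 0.21 on the log2 scale, every gene lay within 2-fold, and the promoter signals had a Spearman correlation of 0.939 across these genes, which share libraries and are not independent replicates. Kcna6 differed most, with 1.05 in replicate 1 and 0.557 in replicate 2, a log2 ratio of 0.92. The next were Kcng2 (0.659 and 0.965), Kcnh2 (2.67 and 3.82), Kcnj12 (1.69 and 1.19) and Kcnh4 (2.41 and 3.35). These differences run in both directions, and replicate 1 was the higher library in 35 of the 66 genes. Over all protein-coding genes with a shared promoter peak it was the higher library in 4052 of 12498, with a median log2 ratio of replicate 1 to replicate 2 of -0.14, against 0.02 for the Kcn genes.

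**Figure D2:**
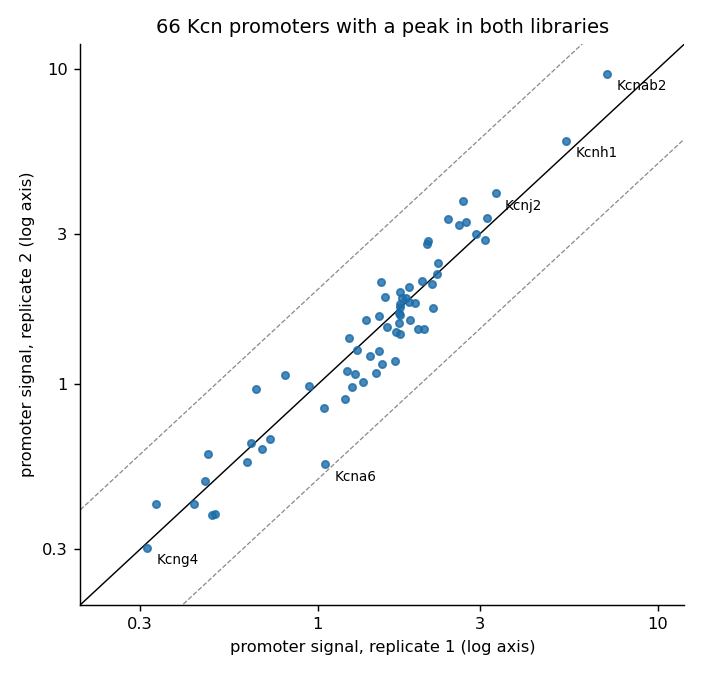
Promoter signal of the 66 Kcn genes with a shared peak, replicate 1 against replicate 2 on log axes; the solid line marks equal signal and the dashed lines a 2-fold difference. All points lie between the dashed lines, with Kcna6 (1.05 and 0.557) nearest to one.

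The voltage-gated pore genes were the class with the most complete set of promoter peaks, at 26 of 29. All 8 Kcnh genes had one, which code for the ether-a-go-go, Erg and Elk channels. The Kcnh count was 7 with the smaller peak list and 6 with peaks at or above each library's median signal. Kcnh1, the ether-a-go-go channel gene on chromosome 1 (192190774 to 192510159), had 5.39 and 5.92, a mean of 5.65 ± 0.375 (SD, n = 2, as for every mean below). Kcnh2, the Erg channel that repolarises heart muscle and also serves neurons, had 3.25 ± 0.809, and Kcnh4 had 2.88 ± 0.664. Kcnh3, Kcnh5 and Kcnh7 lay between 1.35 and 2.07, whereas Kcnh6 reached 0.538 ± 0.0888 and Kcnh8 0.444 ± 0.0777. The Kcnh subfamily thus ran from the strongest promoter of any pore gene to some of the weakest.

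Kcna genes, the Shaker-type channels of axons and nerve terminals, had a shared promoter peak in 7 of 8. Kcna4 was highest with 1.74 and 1.97 (1.86 ± 0.159), closely followed by Kcna1 (1.77 ± 0.0335), Kcna2 (1.73 ± 0.338) and Kcna7 (1.73 ± 0.218), which do not differ beyond their spread. Kcna3 followed with 1.39 ± 0.165, Kcna6 with 0.804 ± 0.349 and Kcna5 with 0.480 ± 0.0209, and Kcna10 had no peak in either library. Both Kcnb genes, the delayed rectifiers of the soma and proximal dendrites, had one, and Kcnb2 read 1.87 and 1.60 (1.73 ± 0.188).

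All 4 Kcnc genes, the fast delayed rectifiers of rapidly firing neurons, had a shared peak. Kcnc1 reached 1.71 ± 0.0343 and Kcnc4 1.19 ± 0.243, and Kcnc2, known from inhibitory interneurons, was lowest at 0.683 and 0.624 (0.654 ± 0.0415). The values of these genes did not overlap between any pair of them in either library. Both autosomal Kcnd genes, which carry the transient A-type current of dendrites, had one, with 2.12 ± 0.0641 at Kcnd2 and 1.29 ± 0.0147 at Kcnd3. Of the 5 Kcnq genes, 3 had a shared peak, among them Kcnq3 at 2.91 ± 0.419 and Kcnq5 at 1.96 ± 0.312, subunits of the neuronal M-current. Kcnq1, best known from heart and epithelia, had no peak at the outermost start in either library.

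Among the silent modifier subunits, 8 of 10 had a shared peak. Kcnf1 (1.85 ± 0.0501), Kcnv1 (1.78 ± 0.390) and Kcns2 (1.70 ± 0.0582) were the highest, and the values of Kcnv1, 2.054 and 1.503, spanned those of the other pair. Kcng3 had 1.33 ± 0.134, Kcns1 0.935 ± 0.192, Kcng2 0.812 ± 0.217 and Kcns3 0.437 ± 0.0743. Kcng4 had the weakest shared promoter peak of all members, 0.315 in replicate 1 and 0.302 in replicate 2. Kcng1 had a peak of 0.911 in replicate 1 alone, and Kcnv2, a retinal subunit, had none.

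Inward rectifiers had a shared promoter peak in 10 of 15 genes. Kcnj2, the classical strong inward rectifier that holds the resting potential, lies on chromosome 11 (111066164 to 111076821) and was highest with 3.35 and 4.03 (3.69 ± 0.482). Kcnj11, the pore of the ATP-sensitive channel, had 2.48 ± 0.517. The subunits of the G-protein-gated channel of cortical neurons followed, with 2.34 ± 0.115 at Kcnj6, 1.82 ± 0.415 at Kcnj9 and 1.75 ± 0.0131 at Kcnj3, whereas the mainly cardiac subunit gene Kcnj5 had the lowest signal of the class, 0.334 and 0.418. Kcnj10, the astrocyte channel that clears extracellular K+, had 1.65 ± 0.112, and Kcnj8, a channel of vessel-wall cells, 0.593 ± 0.0377. The 5 without a peak in either library were Kcnj1, a kidney channel, Kcnj13, Kcnj14, Kcnj15 and Kcnj16.

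Of the 14 two-pore-domain genes, 10 had a shared promoter peak. Kcnk1 was highest with 2.916 and 2.997 (2.96 ± 0.0569), followed by Kcnk12 (2.25 ± 0.00352) and Kcnk13 (1.84 ± 0.0147). The acid-sensitive leak channel genes Kcnk3 and Kcnk9 had 1.29 ± 0.284 and 0.941 ± 0.142, and Kcnk7 had the lowest shared signal of the class, 0.644 ± 0.0131. Kcnk15 had a peak of 0.46 in replicate 1 alone and Kcnk16, a pancreatic channel, one of 0.831 in replicate 2 alone. Kcnk18 and the mechanosensitive channel gene Kcnk2 had none at the outermost start.

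Channels opened by calcium or sodium, counted together with Kcnu1, had a shared promoter peak in 4 of 8 genes. Kcnn3 and Kcnn2, small-conductance channels that shape the after-hyperpolarisation, had 2.44 ± 0.486 and 1.82 ± 0.0707, and the sodium-activated channel genes Kcnt2 and Kcnt1 had 1.56 ± 0.0539 and 0.965 ± 0.0282. Kcnma1, the large-conductance BK channel, Kcnn1, Kcnn4, an intermediate-conductance channel of blood and epithelial cells, and Kcnu1, a sperm channel, had none at the outermost start.

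Of the 16 auxiliary genes, 8 had a shared promoter peak, and they included the strongest of the whole family. Kcnab2, a beta subunit of Kcna channels on chromosome 4 (152390742 to 152477871), read 7.11 and 9.65, a mean of 8.38 ± 1.79, and both values exceeded those of every other member in either library. The gene Nphp4 starts 271 bp from the Kcnab2 start, inside the same window, and how much of the signal belongs to each gene was not tested. Kcnab3 had 1.58 ± 0.0994 and Kcnab1 1.18 ± 0.147. Among the Kcnip genes, calcium-binding partners of Kcnd channels, Kcnip4 had 3.001 ± 0.381, Kcnip3 1.49 ± 0.155 and Kcnip2 1.32 ± 0.118, and Kcnip1 had a peak of 0.317 in replicate 2 alone. The BK beta subunit gene of neurons, Kcnmb4, had 1.59 ± 0.163 and Kcnmb2 0.424 ± 0.00942, while Kcnmb1, the smooth muscle subunit, and Kcnmb3 had none. No Kcne gene (0 of 4) had a promoter peak in either library, nor did Kcnrg, which codes for a regulator of channel assembly.

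The promoter windows of Kcnh1 and Kcnj2, the strongest members with no other gene start in the window, show what lies beneath the signal. The 250 bases upstream of each outermost 5′ end are given in the gene's direction, which is the plus strand of mm10 for both, with capitals for bases inside a footprint of both libraries. They span chr1:192190524-192190773 and chr11:111065914-111066163.
Kcnh1 upstream: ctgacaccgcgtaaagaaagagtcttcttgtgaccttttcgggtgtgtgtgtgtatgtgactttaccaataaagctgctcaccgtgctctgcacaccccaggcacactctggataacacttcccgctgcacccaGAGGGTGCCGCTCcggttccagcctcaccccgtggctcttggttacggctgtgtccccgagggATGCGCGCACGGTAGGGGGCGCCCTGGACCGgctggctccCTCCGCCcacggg
Kcnj2 upstream: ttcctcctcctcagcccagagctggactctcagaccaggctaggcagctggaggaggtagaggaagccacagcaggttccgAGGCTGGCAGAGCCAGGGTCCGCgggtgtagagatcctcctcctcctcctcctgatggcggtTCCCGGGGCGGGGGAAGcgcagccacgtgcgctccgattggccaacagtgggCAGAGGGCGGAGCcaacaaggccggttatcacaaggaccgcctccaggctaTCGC
The Kcnh1 stretch held 51 footprinted bases in 3 runs and the Kcnj2 stretch 57 in 4 runs. Both carry matches to GGGCGG, the box bound by SP and KLF factors, read on either strand: 1 in the Kcnh1 stretch with 5 of its bases in a footprint, and 2 in the Kcnj2 stretch with all 6 bases of each in one. A match is a description of the letters and leaves the bound protein unknown.

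The 4 genes with a peak in 1 library alone had low signal there, from 0.317 at Kcnip1 to 0.911 at Kcng1. The 22 genes with a peak in neither included Kcna10, Kcne1, Kcne2, Kcne3, Kcne4, Kcnj1, Kcnj13, Kcnj14, Kcnj15, Kcnj16, Kcnk18, Kcnk2, Kcnma1, Kcnmb1, Kcnmb3, Kcnn1, Kcnn4, Kcnq1, Kcnrg, Kcnu1 and Kcnv2. For all 22, the deposited cut-rate tables listed no stretch in the promoter window in either library. Those tables come from the same libraries as the peaks and are no separate test. Of the 4 with a peak in 1 library, Kcnk16 had 53 bp listed in replicate 1 and Kcng1 4 bp in replicate 2, where each lacked a peak. Kcnip1 and Kcnk15 had no stretch listed in the library without a peak.

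Read by where the channels are best known to work, the members that were listed divided unevenly. Of 28 members known from cortical neurons, 26 had a shared promoter peak and 28 had one at some annotated start site; the exceptions at the outermost start were Kcnma1 and Kcnn1. Of 5 members known from glia or vessel cells, 4 had one, all but Kcnj16. Of 15 members best known outside the cortex, such as Kcne1 of the heart, Kcnj1 of the kidney and Kcnk18 of sensory ganglia, 2 had one: Kcna7, a muscle channel, at 1.58 and 1.89, and Kcnk5, an epithelial channel, at 1.22 and 1.11. With any start site the count was 4 of 15. These lists were drawn up with earlier results of these libraries known and are a description.

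Several members were accessible at an internal start site instead of, or more than, the outermost one. Kcnn2 was the largest case: the start 290.6 kb inside the gene read 4.87 and 6.55 (5.71 ± 1.19), against 1.77 and 1.87 at the outermost start, so the internal start was higher in both libraries. Kcnma1 had 1.86 ± 0.0898 at a start 10.4 kb in, near the non-coding gene 4930519K11Rik, and Kcnn1 had 2.10 ± 0.328 at a start 6.25 kb in, with no peak at the outermost start of either. Kcnk2 had 1.24 ± 0.0144 at 58.9 kb, where A430027H14Rik also starts within 500 bp, Kcne3 1.29 ± 0.241 at 2.19 kb, Kcnu1 0.492 ± 0.0311 at 62.1 kb and Kcnj16 0.374 ± 0.00794 at 29.5 kb. Kcnip1 had 0.545 ± 0.0103 at 149.7 kb. Of the genes open at both, Kcnc1 had 1.71 at the outermost and 2.38 ± 0.552 at the internal start, Kcnk10 1.12 and 1.91 ± 0.121, and Kcna6 0.804 and 1.79 ± 0.0709; the Kcna6 start in question, 523 bp away, read 1.74 and 1.84, so the gap between libraries seen at its outermost start was not present there.

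CpG content tracked which Kcn promoters were open, as it did for all genes. The 1001 bp windows of the 66 members with a shared peak held a median of 52.5 CpG dinucleotides and those of the 22 with none 13.5, while the medians were 39 over all 92 members and 43 over all protein-coding genes. Below 10 CpGs, 0 of 8 members had a shared peak (2.14% of all genes), and from 10 to 24 it was 7 of 18 (38.9%, against 20.1%). From 25 to 49 it was 22 of 27 (81.5%, against 76.6%), from 50 to 74 17 of 19 (89.5%, against 94.6%), and at 75 or more 20 of 20 (against 97.5%). In these upper classes the members' shares were near those of all genes. The lower signal of the family was seen within these classes too: members with 75 CpGs or more had a median signal of 1.65, against 3.69 over all such genes, and those with 50 to 74 had 1.73, against 3.38. Kcnn1 was the member of highest CpG number (59) without a peak in either library. Across the 66 genes CpG number and signal had a Spearman correlation of 0.31, and across the 12498 genes 0.376.

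**Figure D3:**
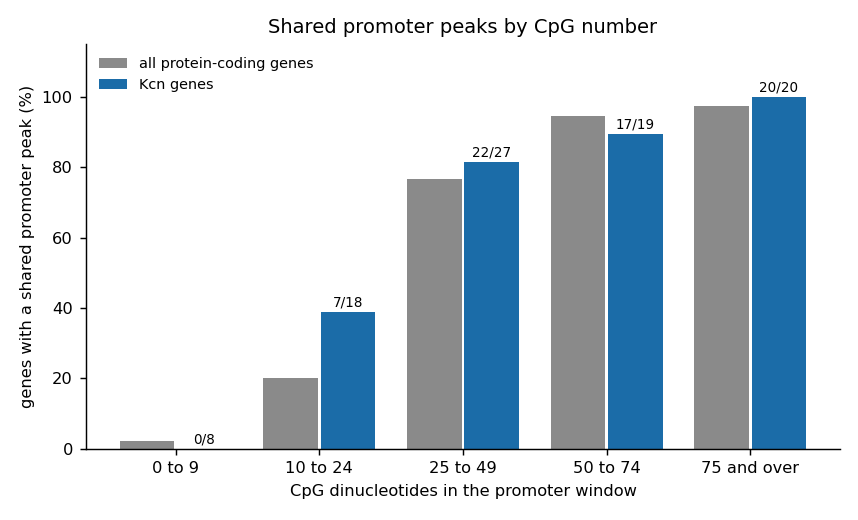
Percentage of genes with a shared promoter peak by the number of CpG dinucleotides in the promoter window, for all protein-coding genes (grey) and Kcn genes (blue, with counts above the bars). The share climbs from 0 of 8 Kcn genes below 10 CpGs to 20 of 20 at 75 or more.

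In the same windows, GGGCGG was present in 66 of 92 members (71.7%, against 61.4% of all promoters), and CCGGAAG, the core of ETS family sites, in 8 (8.70%, against 19.5%). CAGATGG, an E-box variant preferred by NEUROD factors, was present in 21 (22.8%, against 15.3%). In the promoter windows, 56 members (60.9%) had a footprint overlapping between libraries, against 55.4% of all protein-coding genes. Replicate 1 had 456 footprints in the members' windows, of which 203 (44.5%) overlapped one of replicate 2, against 51.7% over all genes, and replicate 2 had 361, of which 198 (54.9%) overlapped, against 64.8%. Kcna3 had the most shared footprints with 10 of its 15 in replicate 1, and Kcnab2 had 9 of 13, Kcnq5 8 of 15 and Kcnd3 7 of 13. Kcna3 led this list with a promoter signal of only 1.39.

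Beyond the promoters, the gene bodies with 10 kb on either side held shared peaks whose centre lay more than 1 kb from every annotated start site, called distal here. Kcn loci had a median of 3 of them, against 1 over all protein-coding genes, with median locus lengths of 52.2 and 37.6 kb. Because longer loci hold more peaks, each locus was set beside the 200 protein-coding loci closest in length. By that measure 58 of 92 members (63.0%) had more shared distal peaks than the median gene of like length, against 38.4% of all protein-coding genes, 15 had the same number and 19 had fewer. The members' median percentile among like-length genes was 78, against 46 over all genes. The loci held 405 distinct shared distal peaks, with 1 counted at both Kcnip1 and Kcnmb1, and of these 406 placements 310 lay in the gene body, 52 upstream and 44 downstream. Their median signal was 0.835, against 0.668 for all distal shared peaks.

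**Figure D4:**
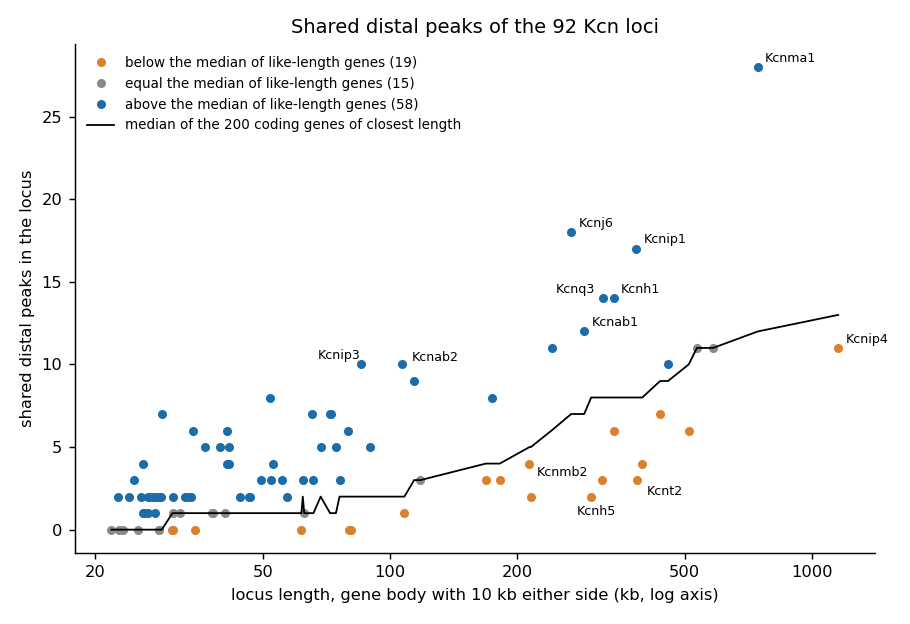
Number of shared distal peaks in each of the 92 Kcn loci against locus length on a log axis, coloured by whether the locus lay above (58), at (15) or below (19) the median of the 200 protein-coding loci closest in length, drawn as a line. Kcnma1 has 28 peaks where like-length genes have a median of 12, and Kcnh5 has 2 where they have 8.

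Kcnma1 on chromosome 14 (23289431 to 24014491) had the most, 28 shared distal peaks where like-length genes had a median of 12. Kcnj6, on chromosome 16 (94748636 to 94997701), had 18 against 7, and Kcnip1, on chromosome 11 (33629339 to 33993152), had 17 against 8. Kcnma1 and Kcnip1 are members with no shared peak at the outermost start. Kcnh1 and Kcnq3 had 14 each against 8, Kcnab1 12 against 7 and Kcnd3 11 against 6, whereas Kcnd2 and Kcnq5 had 11, the same as like-length genes, and Kcnip4, the longest locus at 1155 kb, had 11 against 13. Among shorter loci, Kcnab2 and Kcnip3 had 10 each against 2, Kcnh2 8 against 1 and Kcnj9 7 against 0. At the other end, Kcnh5 had 2 against 8, Kcnmb2 and Kcnt2 3 each against 8, Kcnh7 6 against 10 and Kcnh8 4 against 8. The Kcnh subfamily, complete at its promoters in the larger peak list, thus held members at both ends of the distal scale.

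By class, 19 of 29 voltage-gated pore genes, 7 of 10 modifiers and 10 of 15 inward rectifiers lay above the median of like-length genes. So did 7 of 14 two-pore genes, 5 of 8 calcium- or sodium-activated genes (Kcnu1 included) and 10 of 16 auxiliary genes. Over all protein-coding genes the share was 38.4%. The classes are small, and differences between them were not tested. Some loci without a promoter peak still held distal peaks: Kcnn1 had 6 against 1, Kcnn4 5 against 1, and Kcne1, Kcne2 and Kcne3 had 2 each. Others without a promoter peak had 0, namely Kcne4, Kcnj13, Kcnj14, Kcnj16, Kcnrg and Kcnv2. The 12 loci with 0 also included Kcna3, Kcna5, Kcnk4, Kcnk5 and Kcnk6, which had a promoter peak. At these 12 loci the like-length median was at most 2.

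**Figure D5:**
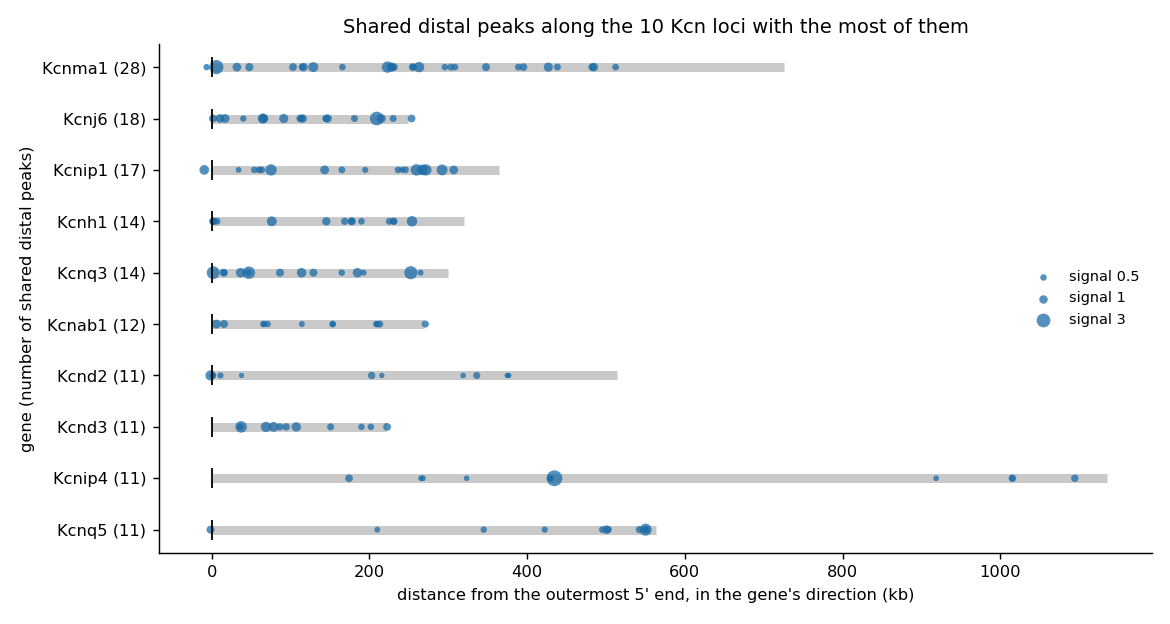
Positions of shared distal peaks along the 10 Kcn loci with the most of them, as distance in kb from the outermost 5′ end; grey bars are gene bodies and the area of each dot grows with the mean peak signal. Kcnma1 (28 peaks) and Kcnj6 (18) are lined with peaks over much of the gene, while the 11 peaks of Kcnip4 are spread over a far longer body.

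The strongest distal peaks matched or exceeded most Kcn promoters. The first lay 2.46 kb upstream of Kcnn1 and read 6.63 and 6.59 (6.61 ± 0.0269), above every member's promoter except Kcnab2. The others in the first 10 were one 38.3 kb beyond the start of Kcna6, downstream of the gene (3.75 and 4.42), one inside Kcnip4 (3.85 and 4.22), one downstream of Kcnn1 (3.78 and 4.09), one upstream of Kcnh4 within the Hcrt gene (3.65 and 4.04), one downstream of Kcnk18 (3.81 and 3.62), and peaks inside Kcnab2 (3.66 ± 0.278), Kcnk9 (3.61 ± 0.534), Kcnip2 (3.47 ± 0.0588) and Kcnma1 (3.18 ± 0.41). Of the 60 members with both a shared promoter peak and a distal one, 30 had a distal peak stronger than the promoter. That count set the strongest distal peak of a locus against the outermost start alone. The same share over all protein-coding genes was not computed. A peak in a locus need not act on that gene, and no contact was measured.

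The sequences of 5 of these peaks are given because they were among the strongest and held shared footprints: 3 with a CTCF match, 1 with other motifs and 1 with no match to the motifs searched. They are read on the plus strand of mm10, with capitals for bases inside a footprint of both libraries. They lie at chr8:70865576-70865875 (the 300 bases with most footprint of the 480 bp peak upstream of Kcnn1), chr6:126702281-126702500 (downstream of Kcna6), chr5:49090241-49090420 (intron of Kcnip4), chr8:70841141-70841340 (downstream of Kcnn1) and chr15:72517121-72517300 (intron of Kcnk9), and none overlaps an annotated exon.
Kcnn1 upstream peak: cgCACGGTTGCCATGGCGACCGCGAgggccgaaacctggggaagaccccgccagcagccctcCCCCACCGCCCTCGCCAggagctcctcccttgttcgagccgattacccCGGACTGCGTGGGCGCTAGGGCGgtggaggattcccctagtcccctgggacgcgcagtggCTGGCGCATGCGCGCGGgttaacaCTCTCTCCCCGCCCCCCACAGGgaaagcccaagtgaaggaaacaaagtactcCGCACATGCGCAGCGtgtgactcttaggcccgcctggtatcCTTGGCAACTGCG
Kcna6 downstream peak: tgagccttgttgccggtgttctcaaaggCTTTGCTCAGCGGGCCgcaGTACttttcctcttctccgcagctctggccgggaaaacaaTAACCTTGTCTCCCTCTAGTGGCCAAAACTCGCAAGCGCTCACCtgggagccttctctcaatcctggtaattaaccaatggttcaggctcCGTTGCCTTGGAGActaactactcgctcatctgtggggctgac
Kcnip4 intron peak: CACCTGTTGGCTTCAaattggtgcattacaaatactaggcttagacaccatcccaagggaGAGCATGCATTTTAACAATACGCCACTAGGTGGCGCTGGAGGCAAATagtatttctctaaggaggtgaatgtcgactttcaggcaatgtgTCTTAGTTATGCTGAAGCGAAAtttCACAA
Kcnn1 downstream peak: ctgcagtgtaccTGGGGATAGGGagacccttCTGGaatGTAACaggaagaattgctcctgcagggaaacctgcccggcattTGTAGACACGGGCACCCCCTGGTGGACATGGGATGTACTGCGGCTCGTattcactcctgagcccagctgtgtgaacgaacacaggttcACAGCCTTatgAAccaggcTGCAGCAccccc
Kcnk9 intron peak: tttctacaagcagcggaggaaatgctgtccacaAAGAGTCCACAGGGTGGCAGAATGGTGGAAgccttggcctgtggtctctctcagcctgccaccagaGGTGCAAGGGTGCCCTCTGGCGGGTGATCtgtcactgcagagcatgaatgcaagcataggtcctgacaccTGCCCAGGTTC
The Kcnn1 upstream peak held 27 CpGs in the printed stretch, 130 bases in 7 shared footprint runs, and within those runs GCGTGGGCG (EGR), GCGCATGC (NRF1, overlapping matches on both strands) and GGGCGG at 2 places, with a further GGGCGG that had 5 of its 6 bases in a run. The peaks in Kcnip4 and Kcnk9 and downstream of Kcnn1 each held 1 match to the CTCF consensus, the letters CCACTAGGTGGC, CCGCCAGAGGGC and CCACCAGGGGGT, in all 3 cases with all 12 bases inside a footprint of both libraries. CTCF is the protein that marks chromatin loop boundaries. The Kcna6 peak held no match to any of the 11 motifs searched, although 78 of its 220 bases lay in shared footprints. It did hold a near match to CTCF, on the minus strand and wholly inside a shared footprint run. Each letter of that near match except the last is found at the same position in at least 1 of the 3 CTCF matches above. The search did not count it, so the peak is not shown to lack a CTCF site.

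CTCF matches were most frequent among the strong distal peaks of the family: 4 of the first 10, 9 of the first 20 and 20 of the first 50 by signal held one, and 37 of all 405. Of those 37, 36 touched a footprint of both libraries. The same count was 7 of 70 for TGANTCA, the AP-1 site of activity-induced factors, 16 of 50 for CAGATGG, 19 of 52 for GGGCGG and 2 of 22 for a pair of REST half-sites, AGCACC and GGACAG set 2 bases apart with at most 2 mismatches. The shares of the family's distal peaks with these motifs lay near those of distal peaks at large: in 201 bp windows CTCF was found in 8.89%, against 9.51% of all distal shared peaks, AP-1 in 13.6%, against 11.99%, and CAGATGG in 9.63%, against 11.1%. The share of CTCF matches among equally strong distal peaks outside the family was not computed. The counts of motifs touching footprints were not matched for peak signal or motif length. All motifs were read on both strands.

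Weak distal peaks were the ones found in 1 library. Of 845 distal peaks in Kcn loci, 405 (47.9%) were shared, against 47.1% of all 111957, and the median signal was 0.835 in shared peaks, 0.339 in those of replicate 1 alone and 0.375 in those of replicate 2 alone. Kcnmb4 was the extreme locus, with 3 shared peaks beside 25 of replicate 1 alone and 9 of replicate 2 alone.

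Genes that work with these channels but carry other symbols gave the following counts. Of 13 partners, 11 had a shared promoter peak, with the highest at Adam22 (4.44 ± 0.744) and the lowest at Abcc9 (0.355 ± 0.101), the receptor subunit that joins Kcnj8. Of the other voltage-gated families, 8 of 14 sodium channel genes, 5 of 9 calcium channel alpha subunit genes and 4 of 4 HCN genes had one, and with any start site 9 of 14, 8 of 9 and 4 of 4. The median signals where shared were 1.03 for sodium, 1.82 for calcium and 1.47 for HCN channel genes, so the Kcn median of 1.62 lay within their range and all lay below the 2.997 of protein-coding genes as a whole.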

How the data were processed

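DNase-seq calls for 2 libraries of 1 group were analysed. The authors deposited, for each library, a larger and a smaller peak list, footprints and cut-rate stretches on mm10, per the labels. What aligner and callers made them is not given in the sources used here. The peak value is the authors' deposited signal, a depth-normalised cut density, and its scaling was read from the values. The deposited footprint and cut-rate tables give an FDR, that is, an adjusted p-value or q-value, which was not tested on further. No allele information was used.

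From these, the peaks used for the distal counts were joined when they overlapped by at least 1 bp and called shared when both libraries contributed. A promoter peak was called shared when each library had a peak reaching the window, and those peaks did not have to overlap. Genes came from GENCODE M21 and sequence from RefSeq's GRCm38.p6, the same build. Promoter windows were 500 bp on either side of the outermost 5′ end. Python 3.11.15, numpy 2.4.6, pandas 2.3.3 and matplotlib 3.10.9 were used, and the interval functions were tested on simulated data. Values are means ± SD over 2 libraries, which measure only the spread between these samples. An SD from 2 libraries is imprecise, and the number of cuts behind each peak is known only through the signal.

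The members and lists were chosen with earlier results of these data known. Every member is in the counts, and the single values of some members are not reported here. Otherwise named with values were the highest and lowest of each subfamily, all members without a peak or with 1 in a single library, and those with the highest promoter signal, distal counts, excess or deficit, library difference and shared footprints. Alternatives covered the window, the peak list, the overlap, the flanks, the distal limit and leaving out each library.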

Additional observations from a re-analysis of the deposited data

How the results depend on the processing

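Of 93 alternative values computed for the counts of promoter peaks, any-start peaks, subfamily peaks and promoter footprints, the median promoter signal and the median distal count, 87 stayed within 1.5 times the reported count or, for the signal, within the SD of 0.105 between the libraries' medians, and 6 moved. The median promoter signal of 1.62 was 1.73 with the smaller peak list and 1.73 with the peaks at or above each library's median signal, which leave fewer and stronger peaks, and 1.51 and 1.64 with 1 library left out. The median of 3 shared distal peaks per locus was 6 with flanks of 50 kb, and 5 with either library left out, since peaks then need not be shared. It was 2 with the gene body alone and with a distal limit of 2.5 kb. The smaller peak list and an overlap of 50% of each peak also gave 2. These lower values lay at the edge of the 1.5 times limit and were counted as unmoved. Many of the 93 values were counts of single subfamilies, with 7 alternatives for each, and none of those moved. The limit also passed drops with the smaller peak list such as Kcna from 7 to 5 and Kcnq from 3 to 2. The 87 therefore does not show that each subfamily's count was steady. Members with a shared promoter peak numbered 54 to 75 across the alternatives, lowest when the peaks had to overlap by 50% of each. The share of all protein-coding genes under that overlap was not computed. No paired analysis was possible because the libraries form 1 group. A peak missing from these lists may be present below the calling threshold, and shares of members are over 92 genes at most.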
